A study of Homo sapiens with 24 samples.

Results

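CXCL9, CXCL10 and CXCL11 are 3 small secreted chemokines that share the receptor CXCR3, and their genes lie next to each other on human chromosome 4. They were taken by symbol from the table of normalized counts, and these 3 genes stand among 38735 named genes, of which 13900 had a mean of at least 10 normalized counts over the 24 libraries and were tested. All 3 passed that minimum, each of them through its level in LPS-treated cells. The cells were THP-1, an established human monocytic leukaemia line, made macrophage-like with 100 nM of the phorbol ester PMA over 24 h, a step that all 4 groups share. DCVC_LPS cells were given 5 µM DCVC for 24 h and then, in fresh medium, 100 ng/mL lipopolysaccharide for 4 h. DCVC stands for S-(1,2-dichlorovinyl)-l-cysteine, which the body forms from the solvent trichloroethylene. LPS cells had medium in place of DCVC before the same 4 h of lipopolysaccharide, DCVC cells had the DCVC step without lipopolysaccharide, and Control cells had medium only. Each group holds 6 libraries with the letters A to F. According to its title, the study asks whether DCVC inhibits the inflammatory response to lipopolysaccharide.

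The 3 ligands draw CXCR3-bearing T cells and NK cells to sites of infection. In macrophages lipopolysaccharide is sensed by TLR4, whose TRIF arm activates the transcription factor IRF3 and leads to interferon beta. Interferon beta then acts back on the cell through a complex that holds STAT2 and IRF9 and binds the interferon-stimulated response element. Interferon gamma works through the gamma-activated site, and CXCL9 is known as the ligand most tied to interferon gamma. NF-kB, the other branch below TLR4, binds kappa B sites, among them well-known ones before CXCL10.

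All 3 genes are on the minus strand, and their promoters are shown because these factors are known to act through sites before such genes. RefSeq promoters on GRCh38.p14 matched 3 of 3 ligands, each covering 250 bases before and 50 after the start site: CXCL9 at chr4:76007460-76007759, CXCL10 at chr4:76023448-76023747 and CXCL11 at chr4:76036021-76036320. They read 5′ to 3′ along the gene, and capitals mark the letters that matched 1 of 4 motifs on either strand.
CXCL9: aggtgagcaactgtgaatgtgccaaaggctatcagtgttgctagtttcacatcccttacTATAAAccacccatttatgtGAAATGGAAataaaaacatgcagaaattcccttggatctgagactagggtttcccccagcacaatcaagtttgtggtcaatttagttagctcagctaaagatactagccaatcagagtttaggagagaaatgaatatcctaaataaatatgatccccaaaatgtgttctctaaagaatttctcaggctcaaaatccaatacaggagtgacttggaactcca
CXCL10: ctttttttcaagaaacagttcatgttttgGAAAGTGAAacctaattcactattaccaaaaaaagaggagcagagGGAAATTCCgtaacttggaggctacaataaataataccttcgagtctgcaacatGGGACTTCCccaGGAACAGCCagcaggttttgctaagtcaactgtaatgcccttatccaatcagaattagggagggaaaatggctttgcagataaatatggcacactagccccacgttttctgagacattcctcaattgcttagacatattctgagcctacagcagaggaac
CXCL11: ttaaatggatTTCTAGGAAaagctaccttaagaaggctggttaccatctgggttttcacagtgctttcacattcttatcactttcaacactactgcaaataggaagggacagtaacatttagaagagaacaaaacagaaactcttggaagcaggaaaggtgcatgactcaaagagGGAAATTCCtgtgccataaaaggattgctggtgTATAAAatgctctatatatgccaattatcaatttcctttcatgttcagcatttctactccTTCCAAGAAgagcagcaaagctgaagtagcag
The motifs were the interferon-stimulated response element as GAAANNGAA, the gamma-activated site as TTCNNNGAA, the kappa B site as GGNNNTTCC and the TATA box as TATAAA. Of 35116 promoters of this length, 8.11%, 7.66%, 20.1% and 11.5% held them, in that order. CXCL9 held 1 response element, starting at position -171 from the start site, and a TATAAA at -191. CXCL10 held 1 response element at -221 and 3 kappa B matches at -176, -122 and -110, the last of them on the other strand. CXCL11 held gamma-activated site letters at -240 and 19, a kappa B match at -75 and a TATAAA at -42. The matches do not overlap within a promoter. They describe these windows only.

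Reads in named genes numbered 20352552 to 26232127 per library in DCVC_LPS, 19985317 to 30107819 in LPS, 18478618 to 22015664 in DCVC and 19675823 to 27986524 in Control. Whether the 6 libraries of a group are separate cultures is not in the labels, and the p-values then measure the spread among these libraries alone, possibly a technical one. In bulk RNA, fewer cells making a transcript and less transcript per cell cannot be told apart. Of 8 macrophage or monocyte markers, 8 averaged at least 10 normalized counts in DCVC_LPS, LPS and DCVC cells and 7 did so in Control cells. Their summed level was 36095 to 39633 in DCVC_LPS, 37491 to 40089 in LPS, 47634 to 54063 in DCVC and 67973 to 78974 in Control libraries. The 4 T cell markers summed to 0 to 1.71 in DCVC_LPS, 0 to 6.47 in LPS, 0 to 1.62 in DCVC and 0.854 to 6.85 in Control libraries, and the 4 epithelial markers to at most 1.67 in any library. Of the T cell markers 2 had no read in each group. Other lists of 4 markers moved: the fibroblast list summed to 75.3 to 122 in DCVC_LPS and 328 to 498 in LPS libraries, the endothelial list to 351 to 509 and 112 to 135, the NK cell list to 115 to 170 and 229 to 340, and the B cell list to 23.3 to 35.1 and 3.58 to 13.3. Their part in the results was not tested.

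Lipopolysaccharide switched the 3 ligands on. CXCL10 had 1913 normalized counts at the lowest, 7269 at the median and 8145 at the highest in the LPS libraries, against 0, 3.42 and 9.95 in the Control libraries. CXCL11 had 268, 1370 and 1675 in LPS libraries, against 0, 2.10 and 3.81 in Control libraries. CXCL9 had 57.4, 382 and 488 in LPS libraries, and no read in any Control library. For each ligand the 6 LPS libraries were above all 6 Control libraries, as they were for 28.7% of all genes tested.

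CXCL10 averaged 6304 ± 2311 normalized counts in LPS cells and 4.31 ± 3.70 in Control cells (SD, n = 6 each), a ratio of 1470 with a 95% interval of 1017 to 2213 that covers counting error only. CXCL11 averaged 1232 ± 502 in LPS cells and 2.08 ± 1.64 in Control cells, a ratio of 577 with an interval of 344 to 1057. CXCL9 averaged 345 ± 167 in LPS cells, and over pooled reads its level was 749-fold that of a floor of 3 reads over the Control group. Per kilobase of exon the LPS means were 5360 for CXCL10, 646 for CXCL11 and 126 for CXCL9, so the order of levels was CXCL10, CXCL11, CXCL9.

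On the scale of log2(value + 1), fitted with limma over all genes tested, the changes were 10.45 ± 0.51 (SE) for CXCL10, 8.66 ± 0.53 for CXCL11 and 8.16 ± 0.42 for CXCL9, with adjusted p of 1.62e-15, 1.75e-13 and 5.11e-15. They stood at places 9, 18 and 24 from the top among 13900 genes. Over all genes 37.8% were called higher and 40.6% lower at an adjusted p under 0.05, so a call alone sets the ligands apart little. With every library scaled to the same total these shares were 22.4% and 59.5%, since LPS libraries have larger normalized totals than Control libraries. That scaling moved the median gene by -0.48 in LPS minus Control, 0.25 in DCVC minus Control, 0.43 in DCVC_LPS minus LPS, -0.30 in DCVC_LPS minus DCVC and 0.18 in the interaction, shifts smaller than each change of a ligand that passed the threshold.

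**Figure D1:**
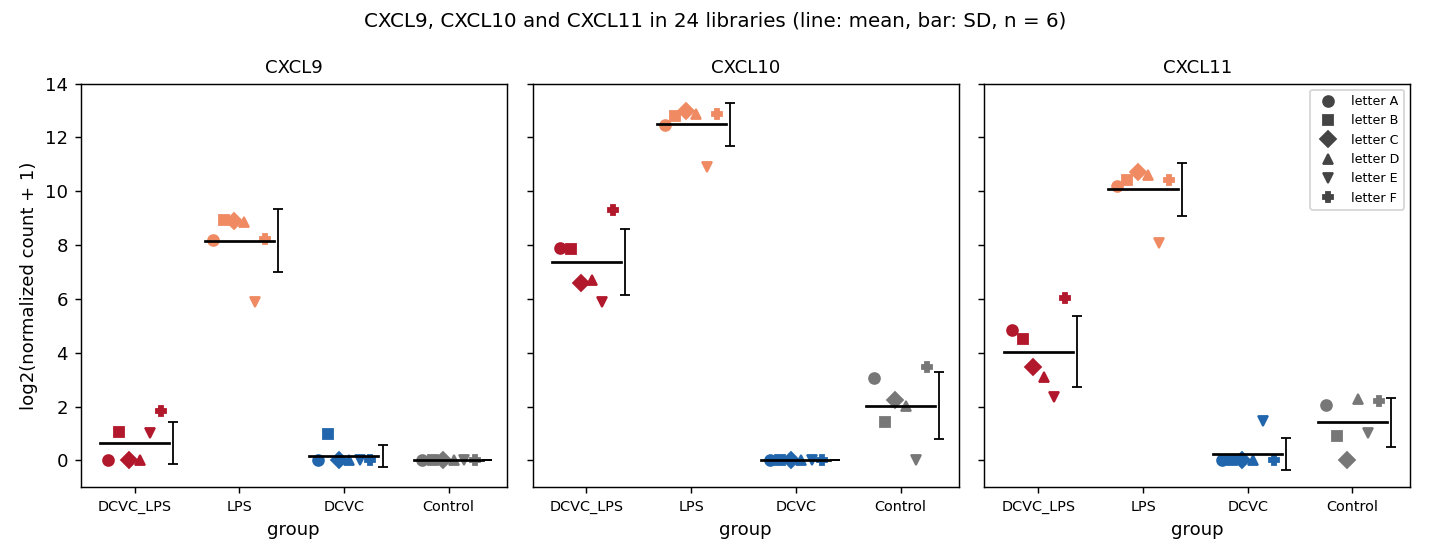
Points show log2(normalized count + 1) of each ligand in each library, by group on the horizontal axis, with a symbol for each letter, a line at the mean and a bar of 1 SD (n = 6). LPS libraries stand above all others for each ligand, LPS E is the lowest of the 6 LPS libraries, and CXCL9 in DCVC_LPS cells lies near 0.

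After the DCVC step, lipopolysaccharide gave far lower levels of all 3 ligands. CXCL9 was almost silent in DCVC_LPS cells, at 0, 0.511 and 2.56 normalized counts (lowest, median and highest library), against 57.4, 382 and 488 in LPS cells. That is 5 reads in all in the 6 DCVC_LPS libraries against 1627 reads in the 6 LPS libraries, a ratio of levels of 0.00222 with a counting interval of 0.00072 to 0.00519. The 5 reads fell in DCVC_LPS B, E and F, and the A, C and D libraries had none.

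CXCL10 kept a measurable level, at 58.2, 167 and 635 normalized counts in DCVC_LPS libraries, against 1913, 7269 and 8145 in LPS libraries. CXCL11 had 4.08, 15.8 and 64.0 normalized counts in DCVC_LPS libraries, against 268, 1370 and 1675 in LPS libraries. The 6 DCVC_LPS libraries were below all 6 LPS libraries for 3 of 3 ligands, and for 29.4% of all genes tested. As a share of the LPS mean, the DCVC_LPS mean was 3.59% for CXCL10, 1.82% for CXCL11 and 0.225% for CXCL9. Without DCVC_LPS F, the library with the highest levels, these shares were 2.29%, 1.15% and 0.122%, a setting chosen after the values were seen.

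Set letter by letter, DCVC_LPS was the lower of the pair in 6 of 6 letters for each ligand. The CXCL10 level in DCVC_LPS was 4.16%, 3.26%, 1.18%, 1.37%, 3.04% and 8.48% of that in LPS for A to F. CXCL11 stood at 2.35%, 1.56%, 0.599%, 0.488%, 1.52% and 4.69% in the same order. For both ligands C and D kept least and F kept most.

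The changes DCVC_LPS minus LPS were -7.51 ± 0.42 (SE) for CXCL9, -6.03 ± 0.53 for CXCL11 and -5.11 ± 0.51 for CXCL10, with limma adjusted p of 1.13e-13, 3.79e-10 and 2.79e-09. CXCL9 had the second lowest value of 13900 genes, CXCL11 stood at place 9 and CXCL10 at place 35 from the bottom. Over all genes 33.3% were called higher and 39.4% lower, and 54.5% and 21.9% at equal totals. Within a group, libraries of the letters A and B, C and D, and E and F deviated from the group mean alike, with correlations over genes of 0.125 to 0.587 in 12 of 12 such pairs and of -0.661 to -0.126 in the other 48 pairs of letters. Deviations within a group sum to 0, which by itself pulls such correlations below 0. Whether such letters share a culture is not in the labels. Within those pairs the changes were -8.03, -8.88 and -5.62 for CXCL9, -5.65, -7.37 and -5.06 for CXCL11 and -4.76, -6.28 and -4.29 for CXCL10. All 9 stayed past the threshold.

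In reads pooled over the 6 libraries of a group, the share of the LPS level that was left differed between the ligands. For every 100 CXCL10 reads there were 0.331 CXCL9 reads in DCVC_LPS cells (exact Clopper-Pearson 95% interval 0.107 to 0.773, counting error only) and 5.46 in LPS cells (5.19 to 5.74). For CXCL11 the numbers were 9.92 per 100 CXCL10 reads in DCVC_LPS cells (8.33 to 11.7) and 19.6 in LPS cells (19.1 to 20.2). In these pooled reads both companions of CXCL10 were scarcer relative to it in DCVC_LPS cells, for CXCL9 on 5 reads. Over libraries, whether a ratio passed depended on the test, as given below.

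These ratios were compared over the libraries as log2 differences within a library, on log2(value + 1). A scaling between libraries hardly touches CXCL11 over CXCL10 in this form. In DCVC_LPS A, C and D CXCL9 had no read. There its ratios depend only on the other ligand's level, and so on the scaling. The CXCL9 ratios and their tests below carry that dependence. CXCL11 over CXCL10 averaged -3.34 ± 0.22 in DCVC_LPS libraries and -2.42 ± 0.21 in LPS libraries (SD, n = 6 each), a difference of -0.92 with an exact two-sided permutation p of 0.00216, the smallest that the splits of 12 libraries allow, and 0.00649 after adjustment over 3 pairs. The 6 DCVC_LPS libraries lay at -3.63 to -3.05, below all 6 LPS libraries at -2.83 to -2.27. CXCL9 over CXCL10 differed by -2.40 (exact permutation p = 0.00433, adjusted 0.00649) and CXCL9 over CXCL11 by -1.48 (exact permutation p = 0.0152, adjusted 0.0152).

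In DCVC_LPS E, the library with the lowest CXCL10, CXCL9 over CXCL10 lay within the LPS range, at -4.87, and CXCL9 over CXCL11 above it, at -1.33. These values rest on 1 CXCL9 read, 4 CXCL11 reads and 57 CXCL10 reads. Libraries of the same letter deviated alike across groups. With the letter as a block, an exact sign-flip permutation test gave an adjusted p of 0.0625 for each of the 3 ratios, so none passed. That test takes the 6 letters as separate units, although A and B, C and D, and E and F deviated alike. CXCL11 over CXCL10 was lower in DCVC_LPS for 6 of 6 letters, with an unadjusted exact p of 0.0312, the smallest that 6 letters allow. Both CXCL9 ratios were lower in 5 of 6 letters, all but E, at an unadjusted exact p of 0.0625. With a pseudocount of 5 the CXCL9 ratios moved to -0.61 and -0.03 (exact permutation, adjusted p = 0.334 and 0.942), since CXCL9 had at most 2.56 normalized counts in DCVC_LPS libraries.

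**Figure D2:**
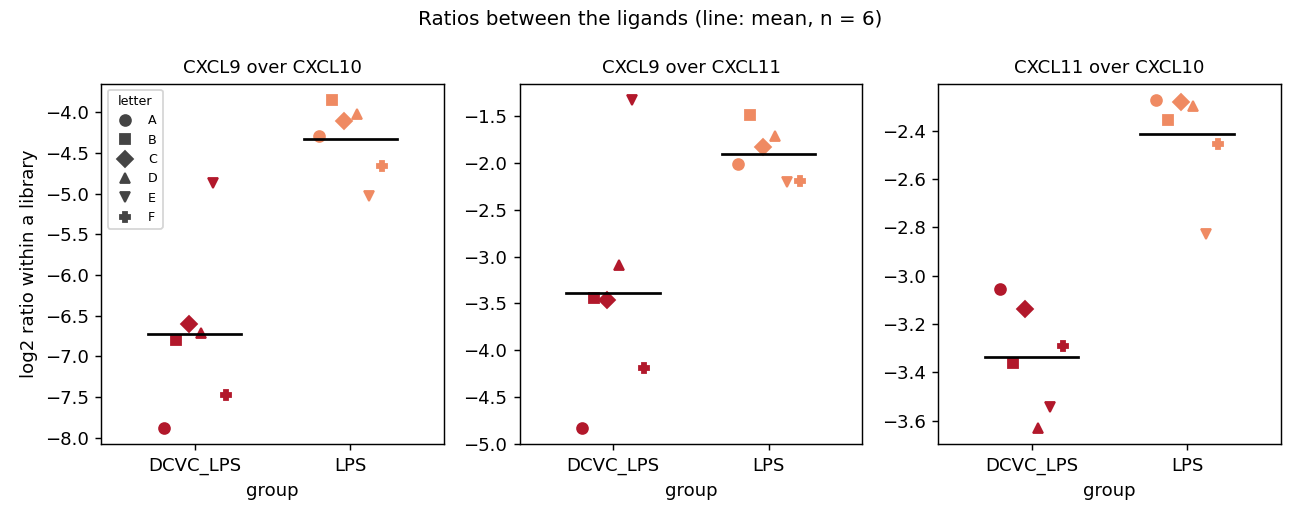
Each point is the log2 ratio of 2 ligands within 1 library, on log2(value + 1), for 6 DCVC_LPS and 6 LPS libraries, with a line at the mean. CXCL11 over CXCL10 does not overlap between the groups. The E library of DCVC_LPS, with 1 CXCL9 read, stands apart from its group in both CXCL9 ratios.

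LPS E and DCVC_LPS F stood apart within their groups, and did so for the ligands together with interferon-stimulated genes. LPS E was the lowest of 6 for 3 of 3 ligands and for 24 of 25 listed genes of the response-element type (96%), against 19.0% of all genes tested. DCVC_LPS F was the highest of 6 for 3 of 3 ligands and for 25 of 25 of those genes (100%), against 21.2% of all genes. The median of those genes in DCVC_LPS F lay 1.84 log2 units above the mean of its 5 fellow libraries. DCVC_LPS E was the lowest of 6 for 2 of 3 ligands and for 22 of 25 of those genes (88%), against 19.1% of all genes, and their median lay at -0.96 relative to its fellow libraries, against -0.58 in LPS E. With LPS E and DCVC_LPS F left out, the DCVC_LPS minus LPS changes were -8.20 for CXCL9, -6.82 for CXCL11 and -5.81 for CXCL10 (limma adjusted p = 3.37e-16, 9.96e-12 and 1.32e-10). These libraries were chosen after the values were seen. Leaving out the lowest LPS and the highest DCVC_LPS library can only widen the falls, so this setting is no check of them.

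DCVC without lipopolysaccharide met ligands that were already barely transcribed. CXCL10 had 0 reads in all 6 DCVC libraries and 28 reads in the 6 Control libraries. Over pooled reads its Control level was 9.56-fold that of a floor of 3 reads over the DCVC group. This value takes the 28 reads as exact. One Control library, E, also had no CXCL10 read, so the groups overlapped. The limma change was -2.04 ± 0.51 (adjusted p = 0.00134). The edgeR count test over 23 libraries gave an adjusted p of 0.164 for it, and with a pseudocount of 5 the change was -0.80 with a limma adjusted p of 0.0949.

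CXCL11 had 2 reads in the DCVC libraries, both in E, against 14 in the Control libraries, a ratio of 0.139 with a counting interval of 0.0154 to 0.607. Its change of -1.16 ± 0.53 missed the threshold in limma at an adjusted p of 0.0644, and passed it with the letter as a block, at 0.0469. CXCL9 had 1 read in DCVC B and none in Control cells, and no difference was detectable at this depth (0.16 ± 0.42, limma adjusted p = 0.754). Over all genes 27.5% were called higher and 32.2% lower, and 46.1% and 20.1% at equal totals.

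Within DCVC-treated cells lipopolysaccharide still raised CXCL10 and CXCL11. CXCL10 had 58.2 to 635 normalized counts in DCVC_LPS libraries against 0 in DCVC libraries, at least 515-fold higher, with a change of 7.38 ± 0.51 (limma adjusted p = 5.02e-12). CXCL11 had 4.08 to 64.0 in DCVC_LPS libraries against 0 to 1.78 in DCVC libraries, a ratio of 76.7 with a counting interval of 20.9 to 639 and a change of 3.79 ± 0.53 (limma adjusted p = 1.21e-06). Neither ligand overlapped between these groups, and 22.1% of all genes were higher without overlap.

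CXCL9 had 5 reads in DCVC_LPS cells and 1 read in DCVC cells. The ratio of 5.11 had a counting interval of 0.572 to 242, and the change of 0.49 ± 0.42 did not pass (limma adjusted p = 0.324). Over all genes 29.9% were called higher and 32.2% lower, and 16.3% and 52.7% at equal totals. The order of mean levels was thus LPS, DCVC_LPS, Control, DCVC for CXCL10 and CXCL11, in which DCVC libraries overlapped Control libraries. CXCL10 had at least 58.2 normalized counts in DCVC_LPS libraries and at most 9.95 in Control libraries. For CXCL11 the lowest DCVC_LPS library, E, had 4.08 from 4 reads, against 3.81 from 5 reads in Control D. That gap thus rests on the scaling. For CXCL9, LPS cells stood above DCVC_LPS, DCVC and Control cells. Neither DCVC_LPS nor Control cells differed detectably from DCVC cells. DCVC_LPS cells, with 5 CXCL9 reads, were not tested against Control cells, with none.

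The interaction compares the response to lipopolysaccharide with DCVC and without it. It was -7.67 ± 0.59 for CXCL9, -4.87 ± 0.76 for CXCL11 and -3.07 ± 0.72 for CXCL10, with limma adjusted p of 5.47e-10, 1.3e-05 and 0.00117, beside 22% of all genes called higher and 23.7% called lower, and 33.1% and 16.1% at equal totals. For CXCL10 the direction turned with the test. Its change in DCVC_LPS minus DCVC, where DCVC cells had no CXCL10 read, was 7.38 in limma and 10.86 in edgeR. The edgeR count test with the deposited scaling gave interactions of 0.35 (adjusted p = 0.792) for CXCL10, -3.35 (0.487) for CXCL11 and -9.81 (0.0997) for CXCL9, so none passed. The difference between DCVC_LPS and LPS levels does not involve those zeros, and in edgeR it was past the threshold for each of the 3 ligands.

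**Figure D3:**
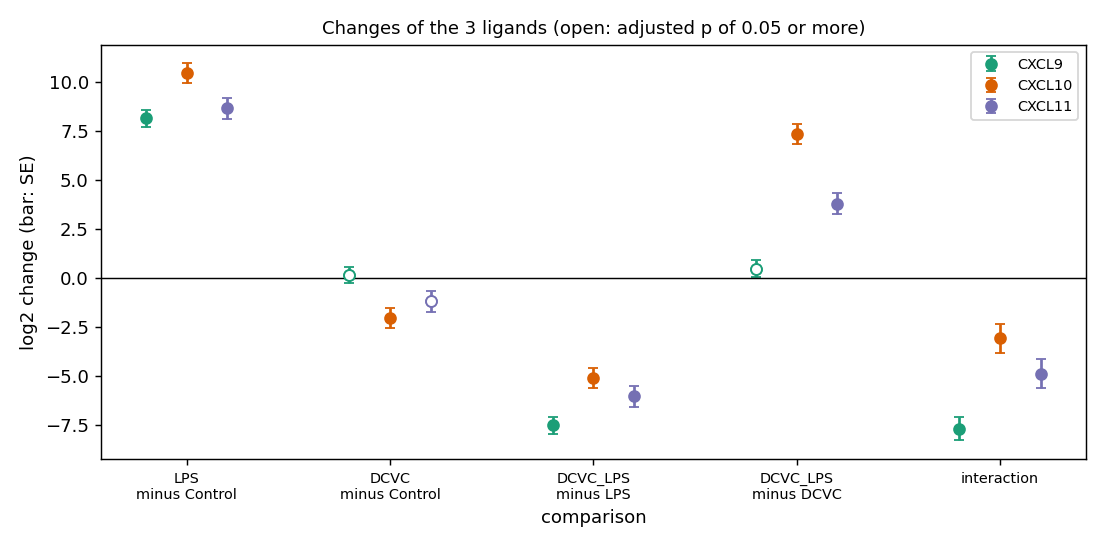
Points show the log2 change of each ligand on log2(value + 1) in the 5 comparisons, with bars of 1 SE, and open points mark an adjusted p of 0.05 or more. The ligands rise together with LPS and separate in DCVC_LPS minus DCVC, where CXCL10 is at 7.38, CXCL11 at 3.79 and CXCL9 at 0.49.

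The receptor CXCR3 was itself measured at low levels, with 0, 0.883 and 2.51 normalized counts (lowest, median and highest) in DCVC_LPS libraries, against 9.34, 15.6 and 24.2 in LPS libraries. The groups did not overlap, and the change was -3.13 ± 0.39 (limma adjusted p = 1.09e-07). In DCVC cells it averaged 10.2 ± 5.53 against 26.4 ± 12.6 in Control cells (-1.39 ± 0.39, limma adjusted p = 0.00345). LPS cells averaged 16.4 ± 5.79 against the same Control cells, which did not pass (-0.60, limma adjusted p = 0.158) but did at equal totals (-1.05, 0.0174).

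ACKR3, an atypical receptor that takes up CXCL11 and CXCL12, averaged 430 ± 96.5 normalized counts in DCVC_LPS cells and 2476 ± 162 in LPS cells (-2.55 ± 0.17, limma adjusted p = 2.31e-12). It rose with LPS, to 2476 ± 162 against 375 ± 110 in Control cells (2.77 ± 0.17, limma adjusted p = 1.38e-13). DPP4, the protease that clips the N termini of the 3 ligands, averaged 58.2 ± 27.4 in DCVC_LPS cells and 123 ± 33.4 in LPS cells (-1.15 ± 0.32, limma adjusted p = 0.00239). The other 3 listed genes, ACKR1, PF4 and PF4V1, were too low to test.

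Interferons upstream of the ligands were sparse. IFNB1, which encodes interferon beta, had 1.08, 6.26 and 13.6 normalized counts in DCVC_LPS libraries (lowest, median and highest), against 24.0, 52.8 and 111 in LPS libraries, and no read in DCVC or Control libraries. The groups did not overlap, the DCVC_LPS mean was 9.82% of the LPS mean, and the change was -3.21 ± 0.38 (limma adjusted p = 4.62e-08). IFNB1 was lowest in LPS E among LPS libraries and highest in DCVC_LPS F among DCVC_LPS libraries, as the ligands were.

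IFNL1, an interferon lambda, was too low to test, with 143 reads in LPS cells and 0 in DCVC_LPS, DCVC and Control cells. IFNG, which encodes interferon gamma, had 7 reads, all in LPS cells. The other 19 interferon genes listed had at most 2 reads each.

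Of the factors that pass on the interferon signal, STAT2 averaged 1151 ± 549 normalized counts in DCVC_LPS cells and 6048 ± 1119 in LPS cells (-2.47 ± 0.16, limma adjusted p = 2.01e-12). IRF9, a DNA-binding partner of STAT2, averaged 170 ± 46.9 in DCVC_LPS cells and 207 ± 18.0 in LPS cells, and its change of -0.31 ± 0.17 did not pass (limma adjusted p = 0.109, or 0.0415 with the letter as a block, and 0.12 in the other direction at equal totals with 0.555).

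IRF3, which TLR4 signalling activates as a protein, averaged 1068 ± 65.2 in DCVC_LPS cells and 780 ± 93.6 in LPS cells (0.46 ± 0.07, limma adjusted p = 3.15e-06). IRF1, IRF7 and IRF8, further interferon regulatory factors, fell, with log2 changes of -1.65, -1.38 and -1.92 (limma adjusted p = 2.08e-09, 3.54e-07 and 6.1e-11). NFKB1 and RELA, both NF-kB subunits, fell, with changes of -1.07 and -0.60 (6.9e-12 and 1.28e-06), and the RELA call was lost at equal totals (-0.17, 0.0586). Over the list of 14 transcription factors 11 fell, 1 rose and the median was -0.99, against a median of -0.07 over all genes. At equal totals 10 fell, 1 rose and the median was -0.56, against 0.36 over all genes. Of all genes 39.4% were called lower and 33.3% higher, or 21.9% and 54.5% at equal totals.

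Genes of the response-element type, such as the MX, OAS and IFIT families of antiviral effectors, moved as a block. With LPS alone 25 of 25 tested rose, against 37.8% of all genes called higher, with a median of 4.68 against -0.03 over all genes. In DCVC_LPS minus LPS 25 of 25 fell, against 39.4% of all genes called lower, with a median of -3.00. With LPS E and DCVC_LPS F left out 25 of 25 also fell, but that choice of libraries by itself deepens most of these falls. The steepest fall among them was that of HERC5, an enzyme that attaches ISG15 to proteins, which averaged 136 ± 104 in DCVC_LPS cells and 3603 ± 869 in LPS cells (-4.90 ± 0.27, limma adjusted p = 9.31e-14). None of the 25 had a lower value than any of the 3 ligands. In DCVC minus Control 8 of 25 fell and 2 rose, with a median of -0.40, and the share that fell was near the 32.2% of all genes called lower there. At equal totals 6 fell and 7 rose, and with LPS E and DCVC_LPS F left out 10 fell and 6 rose. Those libraries belong to neither group compared here, so leaving them out changed only the spread that the 4 groups share, not the changes.

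Of 19 tested genes of the interferon gamma type, 15 rose and 3 fell in LPS minus Control, with a median of 2.71. Among all genes 37.8% were called higher and 40.6% lower there. In DCVC_LPS minus LPS 17 fell, with a median of -1.92, and at equal totals 16 fell and 2 rose. The shares of all genes were 39.4% lower and 33.3% higher, and 21.9% and 54.5% at equal totals. IDO1, a tryptophan-degrading enzyme, was the 1 gene of the list below CXCL10 and CXCL11, at -6.21, and averaged 130 ± 129 in DCVC_LPS cells and 7985 ± 3650 in LPS cells. WARS1, a tryptophanyl-tRNA synthetase, and GBP3, a guanylate-binding protein, fell by 2.50 and 2.47 (limma adjusted p = 1.27e-15 and 4.07e-15).

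Among 27 chemokine genes tested, taken by their CCL, CXCL, XCL and CX3CL symbols and with PPBP added, CXCL9, CXCL11 and CXCL10 held places 1, 3 and 5 from the bottom in DCVC_LPS minus LPS. Places in between went to CCL2, which attracts monocytes, at -6.50, and to CCL1, which attracts T cells, at -6.02. Among 10 other CXC chemokines 6 fell, 1 rose and the median was -1.05, and at equal totals 3 fell and 1 rose. These counts stand beside 39.4% of all genes called lower and 33.3% called higher, or 21.9% and 54.5% at equal totals. CXCL1 and CXCL2, neutrophil attractants that are close copies of each other so that reads may be split between them, had values of -1.31 and -0.95, while both rose with LPS by 8.15 and 8.98 (limma adjusted p = 3.18e-15 and 1.03e-16). CXCL14 rose, at 22.8 ± 6.56 in DCVC_LPS cells against 8.04 ± 3.30 in LPS cells (1.43 ± 0.41, limma adjusted p = 0.00322).

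Higher up, TLR4 averaged 1095 ± 294 in DCVC_LPS cells and 3743 ± 194 in LPS cells (-1.81 ± 0.14, limma adjusted p = 1.88e-11). Its co-receptor CD14 averaged 30.4 in DCVC_LPS cells and 176 in LPS cells (-2.50 ± 0.28, limma adjusted p = 1.6e-08). CD14 averaged 2520 in Control cells and 289 in DCVC cells. It thus fell with LPS alone (-3.82, limma adjusted p = 3.6e-12) and with DCVC alone (-3.11, limma adjusted p = 1.08e-09). Without lipopolysaccharide TLR4 averaged 1127 in DCVC cells and 2121 in Control cells. All counts that follow are of DCVC_LPS minus LPS. They stand beside 39.4% of all genes called lower and 33.3% called higher, or 21.9% and 54.5% at equal totals. Over the 10 tested genes of the TLR4 to IRF3 arm 7 fell and 2 rose, with a median of -0.53, and at equal totals 3 fell and 3 rose. Of 8 interferon receptor and JAK kinase genes 6 fell, with a median of -0.58, and at equal totals 4 fell and 2 rose. JAK2, a kinase of the interferon gamma receptor, fell by 2.15 (limma adjusted p = 2.67e-13), while JAK1, on the same list, had a change of -0.63. Of 9 feedback inhibitors 7 fell and 1 rose, with a median of -1.12.

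**Figure D4:**
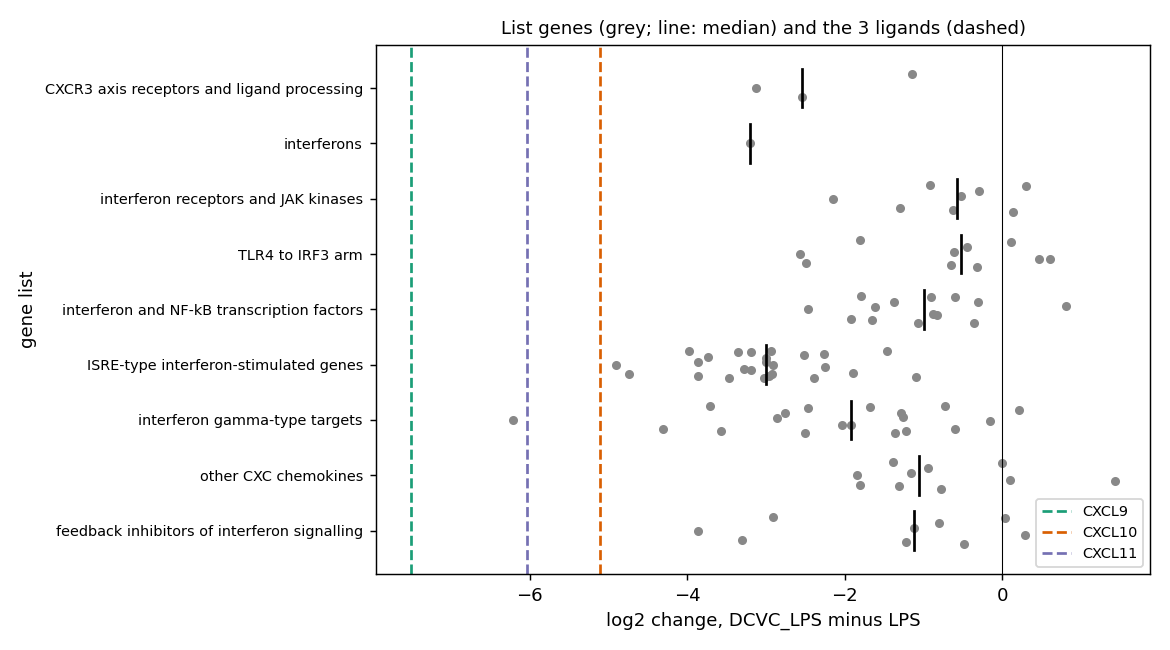
Grey points are the log2 changes DCVC_LPS minus LPS of the tested genes of 9 lists, on log2(value + 1), with a line at each list's median, and dashed lines mark the 3 ligands. The ligands lie left of all listed genes, except that IDO1 lies between CXCL9 and CXCL11.

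The genes whose profile over the 24 libraries lay closest to each ligand, by the root mean square difference of centred log2 profiles, differed between the 3. For CXCL10 they were IL6, SOCS3, TNF, ACOD1 and IDO1, at 1.13 to 1.35, against a median of 4.97 over all genes. For CXCL11 they were KCNA3, CCL8, NEURL3, MX1 and OASL, at 1.07 to 1.17, against a median of 3.93. For CXCL9 they were CCL2, NRG2, HCN4, HAPLN3 and HERC5, at 1.04 to 1.17, against a median of 3.51. The profiles of CXCL9 and CXCL10 differed from each other by 2.68, those of CXCL11 and CXCL10 by 1.54 and those of CXCL9 and CXCL11 by 1.42.

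The nearest of those profiles can be read from their means. IL6, an inflammatory cytokine, averaged 40.7 in DCVC_LPS cells and 2504 in LPS cells, with 0 in DCVC and 0.254 in Control cells. CCL2 averaged 19.8 in DCVC_LPS, 1649 in LPS, 7.37 in DCVC and 21.9 in Control cells. KCNA3, a potassium channel gene, averaged 14.5 in DCVC_LPS, 685 in LPS, 0.776 in DCVC and 2.23 in Control cells.

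In GENCODE 29 on GRCh38 the gene bounds are chr4:76001275-76007488 for CXCL9, chr4:76021117-76023497 for CXCL10 and chr4:76033682-76041415 for CXCL11, with 2740, 1176 and 1908 exon bases. The changes of the neighbours were smaller. SDAD1, 10313 bases away, rose with LPS by 1.44 ± 0.08 and averaged 1395 in DCVC_LPS cells against 2611 in LPS cells (-0.90 ± 0.08, limma adjusted p = 3.83e-10). NUP54, 73244 bases away and encoding a nuclear pore protein, had a change of -0.05 ± 0.07 in DCVC_LPS minus LPS (limma adjusted p = 0.546). NAAA and SCARB2, both of them lysosomal, fell by 0.76 and 0.78 in the same comparison and were lower with LPS too, by 0.41 each.

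ART3, on the plus strand, spans CXCL10 and CXCL11 but shares 0 exon bases with either, and had 6 reads in 5 of 24 libraries. PPEF2, 98704 bases away, averaged under 2 normalized counts in each group and was not tested. AC112719.1, a pseudogene inside CXCL11, and AC112719.2, an antisense gene that overlaps CXCL9, were not analysed here. With the strand setting unknown, CXCL9 reads cannot be told apart from reads of its antisense partner.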

How the data were processed

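RNA was measured by poly-A sequencing in 24 libraries of 4 groups, grouped by the treatment in the labels. The deposited values are a signal per gene, normalized counts that the authors made from reads with STAR, DESeq2 1.24.0, featureCounts 1.6.1, FastQC 0.11.5, R 3.6.0 and MultiQC 0.9 on hg38, in no stated role or order, per the submitters' processing notes. With strand setting and annotation not given in the sources used here, reads from antisense partners may be mixed. In 23 libraries 100% of values were whole multiples of 1 read, within 0.1 read. In LPS A 1 read is worth nearly 1, which could not be checked in that way, so its read numbers are estimates and count tests leave it out.

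Of 58381 entries, 19595 without a name (0.986% of values) stayed out and 51 symbols on several entries were summed. The unit called for the test of normalized values: limma 3.58.1 (R 4.3.3, trend) on log2(value + 1), a pseudocount that understates changes of low genes, over genes with a mean of at least 10, 1 fit, Benjamini-Hochberg, calls at 0.05. The script was tested on simulated data. Ratios were tested by exact permutation (scipy 1.17.1). Alternatives were pseudocounts, filters, equal totals, libraries or letters left out, a letter block and edgeR 4.0.16. Libraries of the same letter deviated alike: deviations from group means correlated at 0.134 to 0.539 in 36 of 36 same-letter pairs between groups. Different letters were not compared between groups, so whether the unit is a letter or a pair of letters is not settled. Intervals cover counting error only, and floors (3 reads) cover only that of the group without reads.

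The ligands, lists and rules were chosen with earlier results of these data known. Named genes are the ligands, CXCR3, ACKR3, DPP4, IFNB1, IFNG and main IRF, STAT and NF-kB genes, neighbours within 150 kb, up to 2 rising and 2 falling members of each list with the smallest adjusted p, and the 5 genes most like each ligand. Not all are described, and 1 of them is not reported here, nor counted in its list. CCL1 and the IFNL1 reads were named after their values were seen.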

Additional observations from a re-analysis of the deposited data

Results flagged for a closer look

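Single libraries lay far from the other 5 of their group in 7 of 64 groups examined, over 16 genes. Chance flags about 1 in 20 groups, though groups with no read in any library, such as CXCL10 in DCVC cells, could not be flagged. In DCVC_LPS F the highest of 6 values was 635 normalized counts for CXCL10, 2598 for IRF7 and 2259 for STAT2, against next values of 235, 1274 and 1082. CXCL11 in LPS E was the lowest of 6 at 268, against a next value of 1167. CXCL9 in DCVC B at 0.977 and CXCL11 in DCVC E at 1.78 stand out because the other 5 libraries had no read. RELA in DCVC B was at 2204, against a next value of 1998.

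By a limma interaction test, the response to LPS differed with and without DCVC for 12 of the 16 genes, of which IFNG was too low to test. Beside this, 22% of all genes tested were called higher and 23.7% lower in the same test. The ligands had interactions of -7.67 for CXCL9, -3.07 for CXCL10 and -4.87 for CXCL11. In the edgeR count tests no ligand passed, and the CXCL10 interaction was positive. CXCR3 had -1.74 and ACKR3 -1.54. IFNB1 had -3.21, STAT2 -2.11, IRF1 -1.61 and IRF7 -1.46. The IFNB1 value repeats its DCVC_LPS minus LPS change, since DCVC and Control libraries had no IFNB1 read. NFKB1 had -0.59 and RELA -0.79. IRF3 alone was positive, at 0.36.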

How the results depend on the processing

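Over 23 results and 741 alternatives, 713 kept their direction and their side of the threshold. The LPS minus Control and DCVC_LPS minus LPS calls of the 3 ligands held in all of theirs. The CXCL10 interaction turned to 0.32 in edgeR with TMM and 0.35 with the deposited scaling, while CXCL9 lost its call at -9.84 and -9.81 and CXCL11 at -3.40 and -3.35. In letters E and F only, CXCL10 (-2.56) and CXCL11 (-4.18) lost the interaction call, and 2859 genes were called in it against 6350 in all letters. The CXCL10 call in DCVC minus Control was lost at a pseudocount of 5 (-0.80), in letters E and F only (-1.73) and in edgeR (-5.16 and -5.17). CXCL11 gained a call there at a pseudocount of 0.5 (-1.65), in the compared groups only and with the replicate block (-1.16 each), in letters A and B only (-1.47), in letters A to D only (-1.30) and with LPS E and DCVC_LPS F left out (-1.16, both alternatives chosen after seeing the data). LPS E and DCVC_LPS F belong to neither group compared there, so leaving them out changed only the shared spread. Leaving out 1 library or letter gave -1.48 to -0.94. Calls came without DCVC E (-1.41), Control C (-1.44) or letter E (-1.48, likewise chosen after seeing the data).

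With the replicate block the log2 ratios kept their size, -2.40 for CXCL9 over CXCL10, -1.48 for CXCL9 over CXCL11 and -0.92 for CXCL11 over CXCL10, and lost their calls. Beside these and the CXCL11 call above, the block changed no call of the ligands. At a pseudocount of 5 the CXCL9 ratios were -0.61 and -0.030. In letters E and F only CXCL9 over CXCL10 was -1.33. The cause of these shifts was not tested. Depth limits CXCL9 outside LPS cells, where 6 reads were counted in 18 libraries, and all 3 ligands in DCVC cells. The edgeR tests had 23 libraries.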
